A study of Homo sapiens with 28 samples.

Results

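The 10 noncoding genes described here host small nucleolar RNAs (snoRNAs), in HEK293T cells, a human embryonic kidney line: SNHG1, GAS5, SNHG5, SNHG6, SNHG8, SNHG12, SNHG15, SNHG16, SNHG3 and ZFAS1. They were chosen by their Ensembl identifiers, out of 34139 gene identifiers in the deposited count table. The list was proposed with an earlier result known, the difference between labelled and unlabelled cells under drop-out handling, so that difference is described below without a test. The drop-out libraries also enter the comparisons of handling, so those tests are not free of that choice. Cells, all wild type, were given 4-thiouridine (s4U), a uridine analogue that is built into new RNA, at 100 µM for 2 h, or were left without it as controls. Nucleotide conversion chemistry then makes s4U read as C, so that a sequenced read with a T-to-C mismatch marks RNA made during the label. Each of 3 chemistries was combined with 2 kinds of RNA handling: iodoacetamide, NaIO4 with trifluoroethylamine (TFEA) at pH 5.2, and OsO4 with NH3. The handlings are called drop-out and improved by the labels, which do not list their steps, and the series' design text states the purpose of the improved protocols as keeping labelled RNA and mutated reads from being lost. Every chemistry and handling had 2 labelled libraries and 1 unlabelled library, 18 in all, with 1935777 to 9962345 aligned reads each. Nothing states that the libraries came from separate cultures, so p-values measure the spread between these libraries, which may be technical. In the fits of level that spread comes from the labelled pairs alone, because each unlabelled group held 1 library. The p-values of comparisons with unlabelled libraries therefore rest on a borrowed spread. The other 10 samples of the series, from other chemistries, are not analysed here.

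A snoRNA is a short nuclear RNA that guides chemical modification or cleavage of ribosomal RNA. Most human snoRNAs lie in introns of a host gene and are trimmed out of the excised intron, while the spliced exons leave as a separate RNA. In the SNHG family, GAS5 and ZFAS1 those exons code for no conserved long protein. Spliced GAS5 is a classic substrate of nonsense-mediated decay, the pathway that degrades RNAs whose translation stops early. Box C/D snoRNAs (SNORD) guide methylation of ribose and box H/ACA snoRNAs (SNORA) guide pseudouridine formation. A host locus therefore yields a spliced RNA, short-lived introns and a very stable small RNA. How far these could be read separately differed by host.

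By RefSeq (GRCh38.p14), GAS5 (ENSG00000234741, chr1:173863901-173869045) holds 11 snoRNA genes, nearly all SNORD, and SNHG1 (ENSG00000255717, chr11:62851978-62855885) holds 9. SNHG12 (ENSG00000197989, chr1:28578538-28582983) holds 4, among them SNORD99 and SNORA61. SNHG16 (ENSG00000163597, chr17:76557764-76565348) holds SNORD1A, SNORD1B and SNORD1C, and ZFAS1 (ENSG00000177410, chr20:49278178-49289260) holds SNORD12, SNORD12B and SNORD12C. SNHG3 (ENSG00000242125, chr1:28505943-28510892) holds SNORA73A and SNORA73B and overlaps RCC1, and SNHG5 (ENSG00000203875, chr6:85677007-85678733) holds SNORD50A and SNORD50B. SNHG8 (ENSG00000269893, chr4:118278762-118279823) and SNHG15 (ENSG00000232956, chr7:44983023-44986696) hold 1 each, SNORA24 and SNORA9.

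Host genes of this kind are known for a pyrimidine tract at the start of the RNA, a feature they share with ribosomal protein genes. The starts of 6 members that the results below turn on are printed for that reason, each as 30 bases running from 10 before the start in RefSeq's table of promoters to 20 from it (GRCh38.p14), with CTTT in capitals where it occurs. For ZFAS1, and for SNHG12 in the count that follows, that start lies inside the gene's span given above and not at its end. For the other members counted it is the end of the span.
GAS5, chr1:173869026-173869055, minus strand: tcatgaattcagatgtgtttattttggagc
SNHG1, chr11:62855866-62855895, minus strand: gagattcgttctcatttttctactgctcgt
SNHG16, chr17:76557754-76557783, plus strand: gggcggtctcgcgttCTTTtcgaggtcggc
SNHG5, chr6:85678714-85678743, minus strand: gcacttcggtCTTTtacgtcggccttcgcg
SNHG3, chr1:28505933-28505962, plus strand: gtgagtttctgattctctaactgcgcatgc
ZFAS1, chr20:49278632-49278661, plus strand: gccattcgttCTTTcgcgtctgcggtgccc
SNHG15 had no window and SNHG6 was left out of the count. Of the 8 members counted, 5 held CTTT on the gene's strand (SNHG5, SNHG8, SNHG12, SNHG16 and ZFAS1), against 12.5% of 35116 windows of the same length. The SNHG8 match lay wholly in the 10 bases before the start. On the opposite strand CTTT was in 0 of the 8 and in 9.64% of all windows. A match is only a run of letters in this window, and its absence from the GAS5, SNHG1 and SNHG3 windows says only that.

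Reads were divided by where they fell. An exonic read of the host alone lay in a host exon and touched no other annotated gene, except at SNHG3 and SNHG5. A further annotated gene spans each of these, and reads that also lay within it were kept. An intronic read lay in a host intron. All 228 such reads of SNHG3, and all but 3 of 158 for SNHG5, were also assigned to the spanning gene. Another class lay over an annotated gene inside the host; the count table gives these nested genes by identifier only, so they could not be named. RefSeq's genes inside the hosts are mostly the snoRNAs, but SNHG12 and ZFAS1 had 5 and 4 other identifiers against 4 and 3 snoRNA genes, and RefSeq also overlaps SNHG12 with TRNAU1AP and SNHG6 with MCMDC2. Reads over nested genes may therefore not all be snoRNA reads. SNHG6 (ENSG00000245910), on chromosome 8, holds SNORD87. Over the 18 libraries GAS5 had 8179 exonic reads, SNHG16 had 4889, SNHG1 had 3057 and SNHG15 had 1600. Fewer fell on SNHG5 (1163), SNHG3 (946), SNHG6 (843), SNHG8 (562), SNHG12 (449) and ZFAS1 (228). The count table's gene column gave SNHG3 and SNHG5 no exonic read of their own, where each lies with a spanning gene; their reads were taken from its exon-level column. The other 8 members had reads in the gene column and passed the filter on low counts. The SNHG3 locus held the most reads, 40209, of which 17715 (44.1%) lay over nested genes and 13421 lay in its exons beside one. SNHG12 had 1222 of 2483 reads (49.2%) over nested genes and SNHG1 had 36.4%. GAS5, with the most snoRNA genes of all, had no read over a nested gene in the table.

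**Figure D1:**
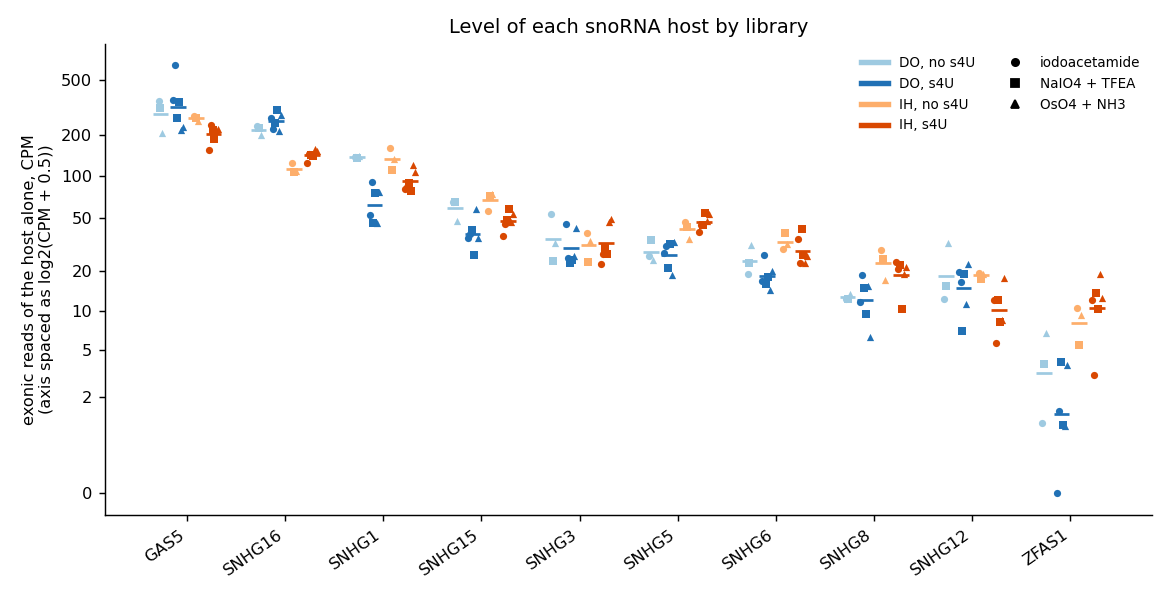
Exonic level of the 10 hosts in each of the 18 libraries, in counts per 1000000 exonic gene reads (CPM), with the axis spaced as log2(CPM + 0.5). Colours give handling and label, symbols give the chemistry and short lines the group means. All SNHG16 libraries with improved handling lie below all those with drop-out handling, and SNHG5 runs the other way.

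Levels with and without the improved handling were compared first. Levels are given in CPM, reads per 1000000 of a library's exonic gene reads after TMM scaling. SNHG16 and GAS5 fell in labelled cells and ZFAS1, SNHG6 and SNHG1 rose. SNHG16, the host of SNORD1A to SNORD1C, ran from 215.7 through a median of 255.0 to 305.8 CPM in the 6 labelled drop-out libraries. With improved handling it ran from 125.9 through 143.9 to 158.7 CPM. These groups do not overlap. The log2 fold change was -0.82 (SE 0.13, edgeR's quasi-likelihood test, adjusted p = 4.05e-06), with -0.84, -0.96 and -0.66 in the iodoacetamide, NaIO4 with TFEA, and OsO4 chemistries. SNHG16 fell without s4U as well, from 202.1, 224.9 and 233.4 CPM to 107.8, 109.3 and 125.1 CPM (log2 fold change -0.95, SE 0.18, edgeR adjusted p = 7.75e-05).

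GAS5, the growth arrest transcript, fell in labelled cells from 218.8 to 643.8 CPM (median 308.5) to 155.1 to 235.2 CPM (median 217.2). The groups overlap, and the highest drop-out value came from 1 iodoacetamide library. The log2 fold change was -0.66 (SE 0.15, edgeR adjusted p = 2.90e-04). It was -1.37 with iodoacetamide, -0.60 with NaIO4 and TFEA and -0.02 with OsO4. Without s4U, GAS5 stood at 208.9, 314.6 and 352.9 CPM under drop-out handling and at 252.1, 266.0 and 276.4 CPM under improved handling. That difference was -0.11 on the log2 scale (SE 0.21) and did not pass the test (edgeR adjusted p = 0.648); with exonic plus intronic reads it was -0.73 and passed (adjusted p = 0.0108).

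ZFAS1, a noncoding gene antisense to the promoter side of ZNFX1, had 0 to 4.0 CPM in labelled drop-out libraries (median 1.27) and 3.1 to 19.2 CPM with improved handling (median 12.5). It rose by 2.55 on the log2 scale (SE 0.52, edgeR adjusted p = 1.20e-04), the largest change of the 8, from 12 and 138 reads in all. The size was uncertain: it was 1.52 with exonic plus intronic reads, 1.17 with the exon-level column, and 2.16 to 3.77 with a library left out, the last without replicate 2 of labelled drop-out iodoacetamide. ZFAS1 passed the test in each of these. The highest drop-out library lay above the lowest improved one, an iodoacetamide library. Without s4U, ZFAS1 stood at 1.1, 3.9 and 6.8 CPM and then at 5.5, 9.4 and 10.6 CPM (log2 fold change 1.37, SE 0.71, edgeR adjusted p = 0.0859). It passed with exonic plus intronic reads (1.01, adjusted p = 0.00192), with the exon-level column (1.07, adjusted p = 0.00701) and scaled to the exonic total (1.81, adjusted p = 0.0274).

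SNHG1 rose in labelled cells from 45.4 to 91.0 CPM (median 64.1) to 78.3 to 120.4 CPM (median 86.9). The ranges overlap; the log2 fold change was 0.51 (SE 0.17, edgeR adjusted p = 0.00958), and 2 drop-out libraries decided the call. Without replicate 1 of labelled drop-out iodoacetamide it was 0.28 (adjusted p = 0.101), and without replicate 1 of NaIO4 with TFEA 0.29 (adjusted p = 0.128). Counted with reads beside nested genes, SNHG1 was at -0.17 (edgeR adjusted p = 0.378), and with no filter on low counts at 0.40 (adjusted p = 0.0536). The labelled drop-out libraries, low for SNHG1, also entered the contrast known when the members were listed, so this test does not stand apart from that choice. Without s4U the log2 fold change of SNHG1 was -0.06 (SE 0.23), and -0.72 with exonic plus intronic reads.

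SNHG6 rose from 14.5 to 26.6 CPM (median 17.6) to 23.3 to 40.9 CPM (median 26.1), a log2 fold change of 0.61 (SE 0.22, edgeR adjusted p = 0.0171). The call was lost in 8 of 18 fits that left out a library, with values of 0.39 to 0.70 over all 18, and the ranges overlap. It was also lost with exonic plus intronic reads (0.061, edgeR adjusted p = 0.784), with no filter on low counts (0.49, adjusted p = 0.103) and with STAR (0.46, adjusted p = 0.057). SNHG8 (0.58, SE 0.28), SNHG15 (0.29, SE 0.18) and SNHG12 (-0.57, SE 0.32) did not pass, with edgeR adjusted p-values of 0.0612, 0.144 and 0.112. With exonic plus intronic reads SNHG12 was called lower (-1.25, edgeR adjusted p = 0.00246), as it was with STAR (-0.77, adjusted p = 0.0338) and HISAT2 (-0.96, adjusted p = 0.0149).

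The share of genes called is the background for these calls. Of 12449 genes tested, 80.6% were called between handlings in labelled cells, 46.7% higher and 33.9% lower, and 72.1% were called in unlabelled cells, 41.4% higher and 30.7% lower. The 5 of 8 members called in labelled cells, and the 1 of 8 (SNHG16) in unlabelled cells, are thus no larger shares than over all genes. The median gene was itself higher by 0.44 with improved handling in labelled cells and by 0.43 in unlabelled cells. Relative to it SNHG16 stood at -1.26, GAS5 at -1.10 and SNHG12 at -1.01 in labelled cells. SNHG1 was within 0.07 of the median gene, SNHG6 within 0.17, and ZFAS1 was 2.11 above it.

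Which members were called depended on the scaling, with no change of sign in labelled cells. Scaled to each library's exonic total instead of TMM, the median gene moved to 0.995 in labelled cells, GAS5 to -0.10 (edgeR adjusted p = 0.492) and SNHG16 to -0.26 (adjusted p = 0.0522), so that both calls were lost. SNHG8 (1.14) and SNHG15 (0.84) were then called higher.

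SNHG5 and SNHG3, outside that fit, were compared by an exact permutation of handling within chemistry (216 arrangements, smallest possible two-sided p 0.00926; 9 such comparisons, unadjusted). SNHG5, the host of SNORD50A and SNORD50B, rose in labelled cells from 18.7 to 32.8 CPM (median 29.3) to 39.5 to 54.1 CPM (median 45.5). The groups do not overlap; the mean difference was 0.80 on the log2(CPM + 0.5) scale, with the smallest p the permutations can give. In unlabelled cells SNHG5 stood at 24.4, 25.9 and 34.0 CPM against 34.8, 42.5 and 46.3 CPM, again without overlap. How often other genes lie without overlap was not counted. Fitted from the exon-level column, SNHG5 was at 0.77 in labelled cells and was called, as were 80.7% of genes. In unlabelled cells it was at 0.59 and was not called. The median gene of that fit was itself at 0.47 in labelled and 0.45 in unlabelled cells. SNHG3 exonic reads of the host alone ran from 23.2 to 44.7 CPM and from 22.6 to 49.1 CPM, and the difference of 0.12 was within the spread (exact permutation p = 0.556).

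**Figure D2:**
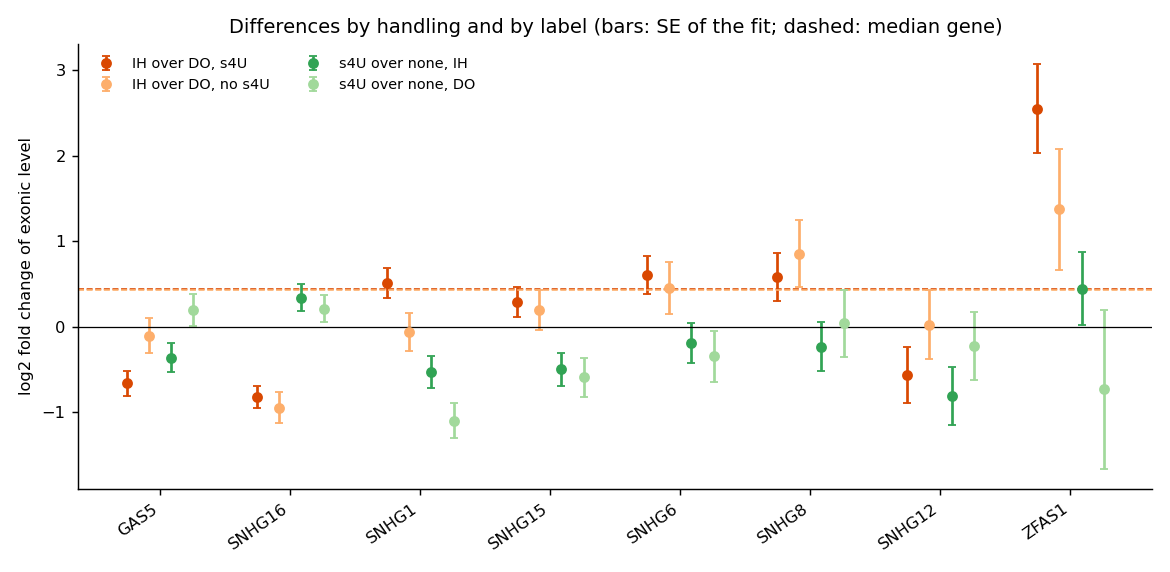
Log2 fold changes of exonic level for the 8 members in the fit, with improved over drop-out handling and s4U over no s4U; bars are the standard error of the fit. Dashed lines mark the median gene of each handling contrast, 0.44 and 0.43. GAS5 and SNHG16 lie well below those lines in labelled cells and ZFAS1 lies above them.

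Label was compared next, s4U against no s4U within a handling. With improved handling no member passed: 0 of 8, against 28 of 12449 genes, 0.225% (918 genes at an unadjusted p under 0.05 by edgeR; DESeq2 also called 0 of the 8). At that unadjusted level were 5 of the 8, SNHG1, GAS5, SNHG12, SNHG15 and SNHG16, with edgeR adjusted p-values of 0.507 to 0.677. GAS5 was lower and SNHG16 higher in all labelled than in all unlabelled libraries, without overlap. Neither passed the test, and how often other genes lie without overlap in this way was not counted. SNHG12 had the lowest value (-0.82, SE 0.34), followed by SNHG1 (-0.53, SE 0.19) and SNHG15 (-0.50, SE 0.19). GAS5 was at -0.36 (SE 0.17), SNHG8 at -0.23, SNHG6 at -0.19, SNHG16 at 0.34 and ZFAS1 at 0.44.

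Under drop-out handling, the contrast known when the members were listed, SNHG1 stood apart. Its unlabelled libraries were at 136.8, 139.8 and 141.1 CPM and its 6 labelled ones at 45.4 to 91.0 CPM, without overlap. The log2 difference was -1.10 (SE 0.21), and -0.91, -1.18 and -1.22 in the 3 chemistries. With reads beside nested genes counted too it was -0.57. SNHG15 was at -0.59 (SE 0.22), SNHG6 at -0.34 and SNHG12 at -0.23, while SNHG8 (0.04), GAS5 (0.19) and SNHG16 (0.21) lay at or above 0. ZFAS1 was at -0.73 with an SE of 0.93, from 12 labelled and 11 unlabelled reads. The median of the 8 was -0.28; without the unlabelled OsO4 drop-out library it was 0.13. Of all genes, 0.217% were called in this contrast.

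The converted share, the percent of exonic reads that carry 1 or more T-to-C mismatches, marks reads from RNA made during the 2 h label, and its size also moved with handling and alignment. In unlabelled cells it is a background of sequencing error and mismatches: 2.86% of all exonic reads under drop-out and 3.12% under improved handling (means of 3 libraries). In labelled cells it was 13.7% ± 2.8 (SD, n = 6) under drop-out and 27.3% ± 3.4 (SD, n = 6) under improved handling over all exonic reads. Among members it ran from 9.91% for SNHG6 to 75.4% for SNHG3, for exonic reads of the host alone pooled over the labelled libraries with improved handling.

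SNHG3 had the highest share, with 64.1% to 79.5% by library (median 77.1%), a pooled 75.4% (95% Wilson interval 70.9% to 79.4%, 394 reads). All of these reads, like those of SNHG5, also lay within the spanning gene, so they may not all be the host's own. Of 9964 genes with at least 100 such reads, 97.6% had a lower share, and the median gene was at 31.7%. SNHG15 followed at 69.3% (65.2% to 73.1%), above 95.5% of genes, then ZFAS1 at 65.9% (57.7% to 73.3%) and SNHG12 at 57.3% (48.5% to 65.6%). In the order of shares these 4 have neighbours whose intervals overlap, and the interval of SNHG3 lies above that of SNHG12. This order covers exonic reads of the host alone, which are fewer than those beside a nested gene for SNHG3, ZFAS1 and SNHG12. Beside a nested gene the share was lower in 6 of 6 libraries for these hosts, by -59.6, -36.7 and -31.1 points on average. For SNHG1 it was higher in 6 of 6, by 27.3 points. SNHG8 and SNHG15 went both ways, and the other hosts had few such reads or none.

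SNHG8 stood at 47.5% (41.0% to 54.1%), SNHG1 at 42.1% (39.1% to 45.1%) and SNHG5 at 38.4% (34.4% to 42.7%), with overlapping intervals. GAS5 (32.4%, 30.6% to 34.4%) and SNHG16 (32.3%, 30.1% to 34.7%) could not be told apart and lay beside the median gene. SNHG6 was by itself at 9.91% (7.13% to 13.7%), with 2.54% of genes lower and 5.3% to 11.9% by library. Intervals cover counting error only, since reads without molecular identifiers are not independent molecules.

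A read with many T positions has more chances of a mismatch, so a mixture of a new and an old mismatch rate was fitted per library, with the rates taken from all exonic reads. The estimated new share was again highest for SNHG3, at 77.5% ± 5.3 (SD, n = 6), and lowest for SNHG6, at 7.45% ± 2.4. SNHG15 was at 71.9% ± 12.1 (SD, n = 6). SNHG1 was at 40.7% ± 5.0, SNHG5 at 35.6% ± 14.9, GAS5 at 32.5% ± 8.2 and SNHG16 at 29.0% ± 6.8 (SD, n = 6), against 27.4% ± 2.8 for all exonic reads. ZFAS1, SNHG12 and SNHG8 had the 20 reads this needs in only 3, 2 and 5 libraries, with means of 73.0%, 60.2% and 49.7%.

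**Figure D3:**
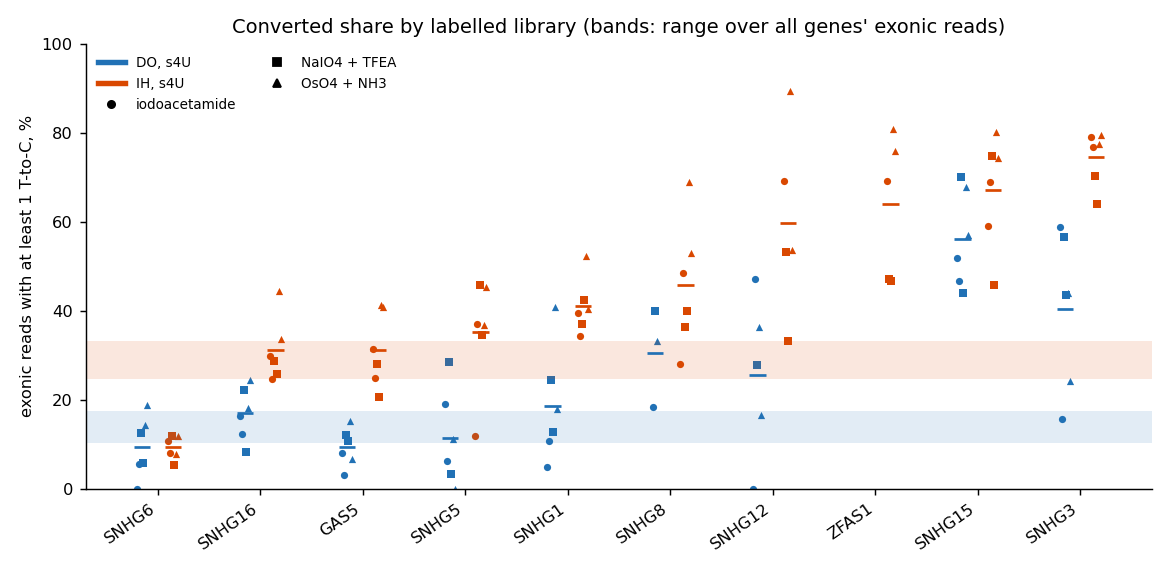
Converted share of exonic reads, in percent, for each host in labelled libraries that had 10 or more such reads, drop-out in blue and improved handling in orange; short lines are means of the libraries shown. Bands give the range over the exonic reads of all genes. SNHG3 and SNHG15 lie above the bands under improved handling and SNHG6 lies below its band.

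Between handlings the converted share rose for GAS5 and SNHG16. GAS5 stood at 3.13% to 15.2% (median 9.38%) under drop-out and at 20.7% to 41.3% (median 29.8%) under improved handling, without overlap. Its log2 odds ratio was 2.27 (SE 0.25, edgeR adjusted p = 2.90e-12). SNHG16 stood at 8.36% to 24.4% (median 17.3%) and at 24.7% to 44.5% (median 29.3%), again without overlap, a log2 odds ratio of 1.19 (SE 0.26, edgeR adjusted p = 5.82e-05). Only these 2 members had the 50 exonic reads in each labelled library that the fit required. Over the 1992 genes fitted 82.0% were called, all higher, and the median was 1.09, so SNHG16 was near the median gene and GAS5 1.18 above it.

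With at least 20 reads required, SNHG1 also rose (1.75, SE 0.35, edgeR adjusted p = 2.29e-05), from 5.0% to 40.9% to 34.3% to 52.3%. SNHG15 did not pass (0.69, SE 0.42, edgeR adjusted p = 0.124); it was already at 44.0% to 70.0% under drop-out and at 45.8% to 80.2% under improved handling. The background there was 70.6% of genes. With the exon-level column, where the SNHG3 reads include those beside nested genes, 5 of 5 members with 20 reads were called, against 70.5% of genes. The other members were outside the fit of the gene column, which gave SNHG3 and SNHG5 no exonic reads of their own and the rest too few. By exonic reads of the host alone, SNHG3 was higher by 34.1 points with improved handling. It went from 15.7% to 58.8% to 64.1% to 79.5%, without overlap and with the smallest exact permutation p, 0.00926. SNHG12 (34.1 points), SNHG8 (26.8 points) and SNHG5 (23.9 points) each had an exact permutation p of 0.0278. ZFAS1, not compared because it had 12 drop-out reads, had 83.3% converted there (95% Wilson interval 55.2% to 95.3%) and 65.9% with improved handling. SNHG6 differed by -0.20 points (exact permutation p = 0.926), with 9.50% ± 6.9 and 9.30% ± 2.7 (SD, n = 6).

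In amounts, converted and unconverted reads changed unequally in GAS5, SNHG16 and SNHG1, the hosts described here. Unconverted GAS5 went from 316.5 ± 160.6 CPM under drop-out to 141.2 ± 24.8 CPM under improved handling (SD, n = 6), and converted GAS5 from 27.8 ± 8.5 to 64.6 ± 21.3 CPM. Unconverted SNHG16 went from 212.4 ± 37.0 to 98.8 ± 8.7 CPM while converted SNHG16 stood at 43.1 ± 16.3 and 45.5 ± 13.7 CPM. SNHG1 did the reverse: its unconverted level was 53.6 ± 20.5 and 54.6 ± 6.8 CPM and its converted level went from 11 ± 5.3 to 39.0 ± 12.8 CPM. These values split each level by the share tested above and carry no test of their own. Which part stayed level also rests on the TMM scaling. Scaled to the exonic total, the log2 fold changes of the whole level moved to -0.10 for GAS5, -0.26 for SNHG16 and 1.08 for SNHG1.

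Reads also differed in length of informative sequence between handlings. GAS5 exonic reads held 25.2 T positions each under drop-out and 38.6 under improved handling, and SNHG1 reads 27.3 and 44.5, in labelled libraries. SNHG16 reads held 45.4 and 46.0, and all exonic reads 32.1 and 35.7. The part of read length in the GAS5 and SNHG1 shares was not tested beyond the mixture above, in which GAS5 stood at 9.76% ± 5.8 and 32.5% ± 8.2 and SNHG1 at 24.7% ± 17.1 and 40.7% ± 5.0 (SD, n = 6).

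The 3 chemistries were compared within improved handling. No gene of 1992 passed (0 called; 50 at an unadjusted p under 0.05 by edgeR, and DESeq2 also called 0). GAS5 had 28.2% ± 4.7 with iodoacetamide, 24.4% ± 5.2 with NaIO4 and TFEA and 41.1% ± 0.2 with OsO4 (SD, n = 2 each; unadjusted p = 0.013, edgeR adjusted p = 0.977). SNHG16 had log2 odds ratios over iodoacetamide of 0.02 for NaIO4 with TFEA and 0.79 for OsO4 (edgeR adjusted p = 0.977).

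Introns had a higher converted share than exons in 5 of the 10 hosts. Of the other 5, only SNHG3 had intronic reads in all 6 libraries. The same comparison was not made over all genes, so this count does not mark the hosts as unlike other genes. With improved handling, 82.5% of 97 intronic GAS5 reads were converted (95% Wilson interval 73.7% to 88.8%), 74.5% of 106 for SNHG16, 80.2% of 121 for SNHG5 and 79.3% of 111 for SNHG6. ZFAS1 introns reached 94.9% of 687 reads (93.0% to 96.3%), and SNHG3 introns 73.8% of 84. The same introns in unlabelled cells held 2.65% for GAS5 and 1.42% for ZFAS1. GAS5, SNHG5, SNHG6, SNHG16 and ZFAS1 each had a higher share in introns than in exons in 6 of 6 libraries, by 50.9, 43.9, 71.5, 40.3 and 30.5 points on average. An exact two-sided sign-flip permutation test over the 6 libraries gave p = 0.031 for each, the smallest it allows (34 such comparisons, unadjusted). SNHG3 differed by -2.4 points ± 22.0 (SD, n = 6, exact permutation p = 0.781), and no difference between its exons and introns was detected at this depth. The intronic reads of SNHG3, and nearly all of those of SNHG5, were also assigned to the spanning gene, so they may not be the host's own.

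SNHG6 had the widest gap: spliced exons at 9.91% and introns at 79.3% in the same libraries. Under drop-out handling its introns were also higher in 6 of 6 libraries, by 59.4 points ± 31.1 (SD, n = 6; exact permutation p = 0.031), from 28 intronic reads. GAS5 introns under drop-out were at 34.7% of 49 reads, higher than exons by 35.7 points ± 26.2 in 6 of 6 libraries (exact permutation p = 0.031). SNHG16 introns were higher in 5 of 6 libraries (34.2 points ± 30.0, exact permutation p = 0.0625). SNHG3 introns were higher in 3 and lower in 3 (-5.9 points ± 40.5, exact permutation p = 0.688), and ZFAS1 introns were higher in 1 and lower in 3 of the 5 libraries with both kinds of read.

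ZFAS1 was the member with most of its own reads in introns, 1465 against 228 exonic. Its intronic level was 6.4 to 27.0 CPM (median 12.7) in labelled drop-out libraries and 49.1 to 81.2 CPM (median 59.9) with improved handling, without overlap. In unlabelled cells it was 13.9, 19.2 and 27.1 CPM against 51.9, 69.2 and 75.4 CPM, also without overlap. The other members had 12 to 300 intronic reads each over all libraries, and intronic levels were not fitted.

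**Figure D4:**
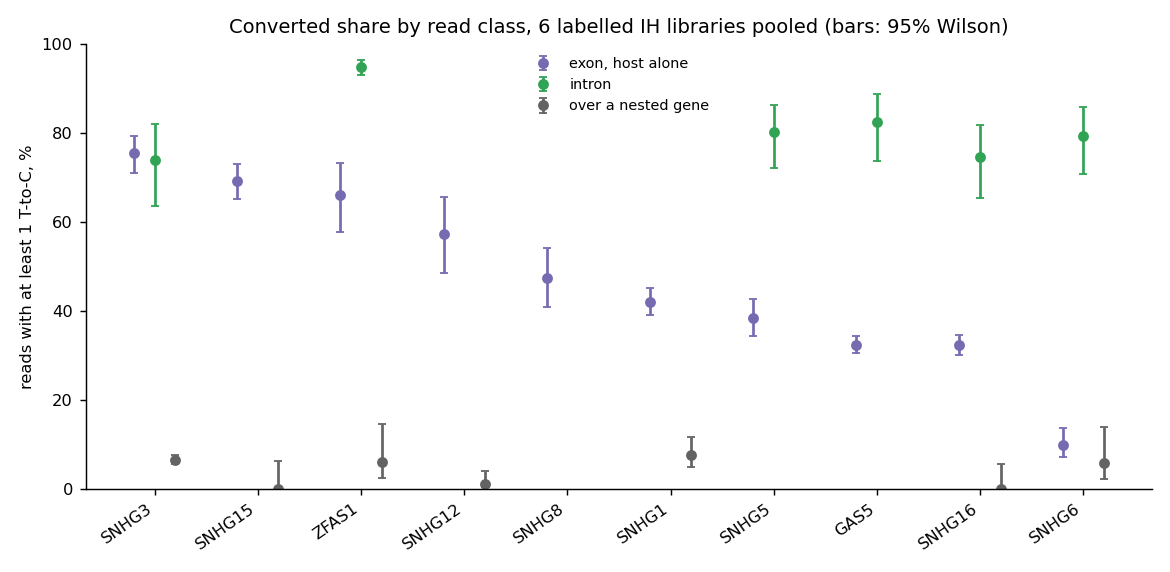
Converted share in percent by read class, pooled over the 6 labelled libraries with improved handling, for classes of 20 or more reads; bars are 95% Wilson intervals. Introns lie at 73.8% to 94.9%, reads over nested genes at 0% to 7.7%, and exons of the hosts range from 9.91% for SNHG6 to 75.4% for SNHG3.

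Few reads over the nested genes were converted, except in SNHG5, where 5 of only 8 were. With improved handling 7.69% of 247 such SNHG1 reads were converted, 1.15% of 174 for SNHG12, 5.80% of 69 for SNHG6, 6.06% of 66 for ZFAS1 and 6.53% of 2634 for SNHG3. The same reads in unlabelled cells held 3.68% for SNHG1, 0.74% for SNHG12, 2.04% for ZFAS1 and 5.99% for SNHG3. SNHG6 had 0 of 67 in unlabelled cells, with a 95% Wilson upper limit of 5.42%, against a labelled interval of 2.28% to 13.98%. SNHG15 had 0 of 58 and SNHG16 had 0 of 66 converted, with 95% Wilson upper limits of 6.21% and 5.50%. Against exons of the same host the share was lower in 6 of 6 libraries for SNHG1 (-34.2 points), SNHG12 (-54.6), SNHG15 (-67.2), SNHG3 (-68.0) and ZFAS1 (-61.5), each with an exact sign-flip permutation p of 0.031. For SNHG6 the difference was -2.4 points ± 13.0 (SD, n = 6; exact permutation p = 0.688), with exons at 9.91%.

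SNHG3 reads in exons beside a nested gene were converted to 15.1% (13.6% to 16.8%) with improved handling, but also to 14.4% (12.8% to 16.1%) in unlabelled cells. In unlabelled cells the exonic reads of SNHG3 alone were at 2.68%. Beside the nested gene, labelled and unlabelled SNHG3 reads thus had overlapping intervals. SNHG1 differed here: with improved handling its reads beside a nested gene were 53.1% to 87.3% converted by labelled library, and 1.85% to 11.1% by unlabelled library.

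Reads assigned to both a host and a nested gene fell with improved handling. Such an assignment does not show that a read runs from the host into the nested gene. Each combination of genes in the exon-level column was counted as its own feature. Of these, 14 named a host with a nested gene, for 8 of the hosts. In labelled cells 14 of 14 fell (edgeR log2 fold changes of -4.15 to -2.06, median -2.63, largest adjusted p 0.00356). In unlabelled cells 14 of 14 fell as well (-5.12 to -1.98, median -2.83). Of the 14458 features tested 33.7% and 30.3% were called lower. This choice of features was made after the data were seen, and features of 1 host share their locus. A feature could also pass the filter on low counts through the drop-out libraries alone, where these features were high. The 14 of 14 may thus be set in part by the filter. With unlabelled libraries left out in turn, 12 to 14 of the 14 were called in unlabelled cells; the 12 were without the iodoacetamide library with improved handling.

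SNHG3 reads over nested genes went from 801.7 to 1910 CPM (median 1527) in labelled drop-out libraries to 122.7 to 376.1 CPM (median 250.4) with improved handling, without overlap. Its feature of host and nested gene fell by 2.36 on the log2 scale (SE 0.14, edgeR adjusted p = 3.06e-12). SNHG1 reads over nested genes went from 109.0 to 471.7 CPM (median 155.9) to 6.24 to 40.3 CPM (median 22.0), also without overlap. The SNHG8 feature fell most, by 4.15 (SE 0.45, edgeR adjusted p = 1.72e-08), and that of SNHG6 fell by 3.0 (SE 0.25, edgeR adjusted p = 2.64e-10). SNHG8 had only 0 to 8 reads over nested genes in each labelled library with improved handling, against 14 to 150 under drop-out. Its size and rank therefore rest on counts near the floor. Exonic reads of the host alone were not lower in labelled cells: SNHG3 differed by 0.12, SNHG8 by 0.58 and SNHG6 by 0.61. Most SNHG3 exonic reads lay beside a nested gene, 13421 against 946 of the host alone. With exonic reads beside nested genes counted too, SNHG3 was lower, at -2.30, with SNHG8 at -0.053 and SNHG6 at 0.63.

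Without s4U the SNHG3 reads over nested genes were lower as well, at 854.2, 1422 and 1734 CPM under drop-out and 158.0, 271.3 and 300.8 CPM under improved handling. With label none of the 14 features passed under improved handling (0 called by edgeR, against 0.214% of features), with log2 fold changes of -0.33 to 1.71. Where exonic reads beside nested genes were counted with the host, SNHG3 was at -2.30 and SNHG12 at -1.66 between handlings in labelled cells, both called. Counted that way 7 of 10 members were called, against 80.7% of 13528 genes.

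**Figure D5:**
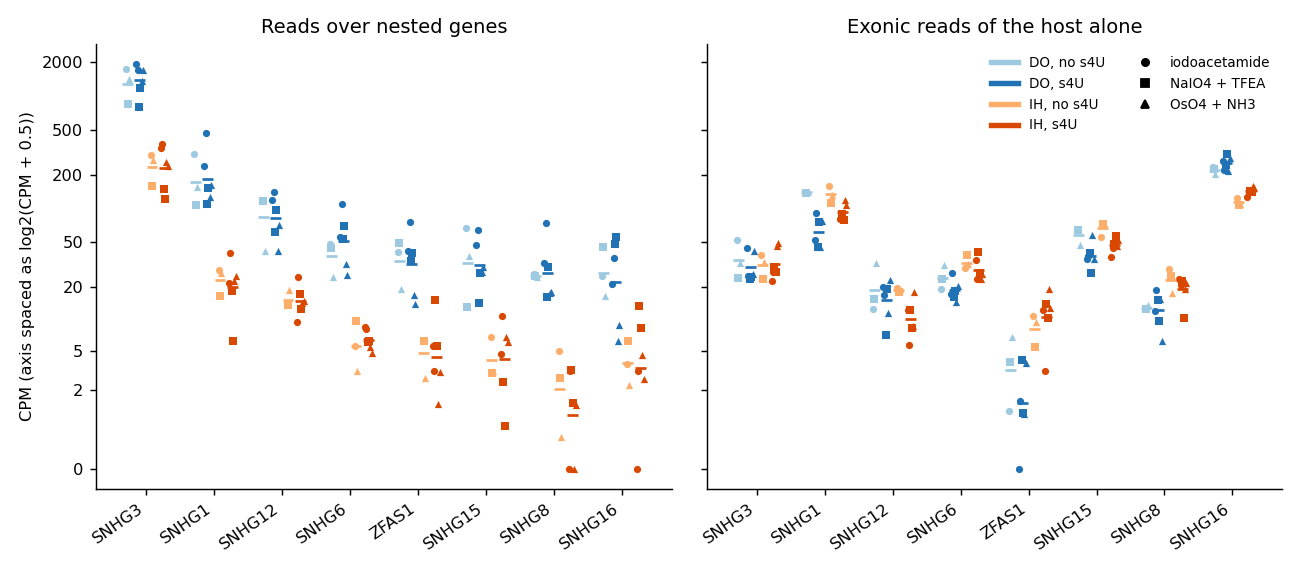
CPM of reads over nested genes (left) and of exonic reads of the host alone (right) for 8 hosts in each library, on an axis spaced as log2(CPM + 0.5); colours give handling and label, symbols the chemistry and short lines the group means. On the left the medians with improved handling are lower for each of the 8 hosts, for SNHG3 at 122.7 to 376.1 CPM against 801.7 to 1910 in labelled cells; on the right no common shift is seen.

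Rate constants of degradation came as the authors' deposited table, which listed 4 members in each chemistry: GAS5, SNHG1, SNHG16 and SNHG3. In the authors' deposited table the constant was higher with improved handling for 3, 4 and 3 of the 4 at an adjusted p under 0.05 (iodoacetamide, OsO4, and NaIO4 with TFEA), against 48.9%, 48.1% and 52.6% of all transcripts. In the authors' deposited table GAS5 had log2 fold changes of 2.86, 2.24 and 0.87, the last with an adjusted p of 0.0514. SNHG1 had 1.66, 1.15 and 1.65 in the authors' deposited table, and SNHG16 had 2.09, 1.60 and 1.51. SNHG3 had 0.06 with iodoacetamide (adjusted p = 0.893) and 1.13 and 0.95 in the others in the authors' deposited table. By the constant itself with improved handling, in the same order of chemistries, SNHG3 stood at the percentiles 36.9, 66.5 and 43.7 of the authors' deposited table, and SNHG1 at 91.7, 95 and 91.2. That order is the reverse of the converted shares above, where SNHG3 was higher than SNHG1; which reads of SNHG3 entered the constants is not stated. The constants come from the same libraries as the shares.

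Among other genes of the pathway, the authors' deposited table listed 2 of 14 further noncoding hosts. SNHG17 was higher with improved handling in all 3 chemistries (1.06, 1.57 and 1.30, authors' deposited table), and SNHG7, listed with OsO4 only, was at 0.49 with an adjusted p of 0.455. Of nonsense-mediated decay factors, 4 of 5, 3 of 4 and 4 of 5 listed were higher in the same order of chemistries, against 48.9%, 48.1% and 52.6% of all transcripts in the authors' deposited table. SMG6, the endonuclease of the pathway, was higher in all 3 (1.54, 2.15 and 1.28, authors' deposited table). SMG1 with iodoacetamide (0.54, adjusted p = 0.376), SMG5 with OsO4 (0.78, adjusted p = 0.0858) and UPF1 with NaIO4 and TFEA (0.52, adjusted p = 0.153) did not pass in the authors' deposited table. Of the proteins that coat snoRNAs, 2 of 5, 2 of 4 and 5 of 5 listed were higher. Of 6 HEK293T markers the authors' deposited table listed 3 (VIM, NEFM and KRT18) and not the other 3, and of 6 markers of liver, blood or fibroblasts it listed 0. The count table names genes by identifier only, so markers could not be checked in the counts.

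The alignment moved the converted shares of some hosts. The main values are from HISAT-3N, which aligns converted reads without penalty. The deposited table holds HISAT2 and STAR alignments under 3 settings, named D, ML and VL and not defined in the sources used here. With HISAT2 under D the mean share with improved handling was 19.0% for GAS5 instead of 31.2%, 16.1% for SNHG16 instead of 31.2% and 31.7% for SNHG1 instead of 41.0%, lower in 6 of 6 libraries for each. Under ML these were 24.8%, 19.7% and 36.0%, again lower in 6 of 6. Under VL the order turned for SNHG16 (39.4%, higher in 6 of 6 libraries) and SNHG1 (45.1%, higher in 5 of 6), and GAS5 was at 30.6%. Under VL the unlabelled libraries also stood higher, at 18.5% for SNHG16, 12.3% for SNHG1 and 8.61% for GAS5. SNHG3 and SNHG5 were not compared between alignments. Under HISAT2 with D, ZFAS1 stood at 37.2% instead of 63.3%, SNHG12 at 39.0% instead of 55.4%, SNHG15 at 52.9% instead of 67.2% and SNHG8 at 30.3% instead of 45.8%, each lower in 6 of 6 libraries. SNHG6 was at 7.45% under D, within its spread of 9.30% ± 2.7 (SD, n = 6), and at 26.2% under VL, where it was higher in 6 of 6 libraries and its unlabelled libraries averaged 10.98%. The order of the hosts given above is that of HISAT-3N. STAR under D gave 28.4% for GAS5, 23.3% for SNHG16 and 38.9% for SNHG1. SNHG16 had 45.1% more exonic reads with STAR than with HISAT-3N in those 6 libraries.

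The genes with the pattern most like the members' mean level over the 18 libraries were ENSG00000162772 on chromosome 1 (Pearson r = 0.82) and ENSG00000071994 on chromosome 6 (r = 0.80), among 3448 genes that averaged 100 or more exonic reads per library; the median r was -0.24. The points share libraries and handling, so these correlations are descriptions.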

How the data were processed

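Per the labels, total RNA was taken with Trizol, treated with DNase, converted and made into stranded total-RNA libraries. The submitters' processing notes name cutadapt, HISAT2, STAR, HISAT, Picard, HTSeq and DESeq2 and the build GRCh38, without roles or versions. The authors deposited counts of reads for each library, alignment, gene and exon-level gene, split by intron and by how many T positions a read held and how many of them read as C; these other deposited values are whole numbers per read. The authors also deposited bakR degradation rate constants, of other, unstated time unit, with an adjusted p-value and a log2 fold change of improved over drop-out handling.

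HISAT-3N counts were used. Exonic counts were tested with edgeR 4.0.16 in R 4.3.3 (TMM, filterByExpr, quasi-likelihood, 12 groups, Benjamini-Hochberg over all genes, threshold 0.05); contrasts were averaged over chemistries. Converted shares were fitted on converted and unconverted counts. DESeq2 1.42.0 and other settings were alternatives. Scripts were tested on simulated data. Depth ran from 1935777 to 9962345 aligned reads. All 10 members are named throughout; the members and lists were chosen with earlier results of these data known. The exon-level column, the nested features, the read classes and the exact permutations were added after the data were seen. No replicates of a group looked like 1 library deposited again (chi-square per degree of freedom 2.13 to 8.68).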

Additional observations from a re-analysis of the deposited data

Results flagged for a closer look

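Within each set of 6 labelled libraries the highest and lowest values were checked for standing apart from the rest, for the level and the converted share of the members; chance flags about 1 in 20 sets, and 3 of 30 sets were flagged. GAS5 stood at 643.8 CPM in the labelled drop-out iodoacetamide replicate 2, with the nearest of the other 5 at 359.1 CPM. Without that library the fall of GAS5 between handlings kept its call. SNHG5 had a converted share of 11.9% in the labelled iodoacetamide replicate 1 with improved handling, from 42 reads, with the nearest at 34.6%. SNHG8 stood at 10.4 CPM in the labelled NaIO4 with TFEA replicate 2 with improved handling, with the nearest at 19.2 CPM; without it SNHG8 was called higher between handlings (0.71, edgeR adjusted p = 0.0301).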

How the results depend on the processing

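With DESeq2 the number of members called was unchanged in each comparison (5, 1, 0, 2 and 0), as it was with the replicate number as a block (replicate block: 5, 1, 0, 2 and 0, and 14 of 14 nested features in each handling comparison). The replicate numbers were not taken as a pairing, since only 3 of 15 pairs of groups had deviations of same-numbered libraries correlated above 0.1 (-0.027 to 0.629 in all). In the labelled drop-out libraries the estimated new share of all exonic reads was nevertheless higher in replicate 1 than in replicate 2 in each chemistry (15.4% and 10.3%, 16.03% and 11.1%, 16.8% and 11.6%). Between handlings in labelled cells 3 of 8 were called with no filter on low counts, and 3 to 7 when libraries were left out (3 without labelled drop-out iodoacetamide replicate 1, 7 without labelled drop-out OsO4 replicate 1). In unlabelled cells 5 were called with scaling to the exonic total, 4 with exonic plus intronic reads, 2 with HISAT2, 4 of 10 with the exon-level column, and 1 to 2 with a library left out. With label under improved handling HISAT2 called 1, SNHG15 (-0.88, edgeR adjusted p = 0.028). Under drop-out the median of the members ran from -0.46 to 0.13 with a library left out. For the converted share the exon-level column with at least 20 reads gave 5 of 5 called, among them SNHG3 (0.98, edgeR adjusted p = 1.81e-05).

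Some differences turned in sign, in each case without passing the test unless said. With exonic plus intronic reads and with the exon-level column, labelled SNHG1 was at -0.18 and -0.17, SNHG8 at -0.092 and -0.053, and SNHG15 at -0.38 and -0.0074. In unlabelled cells SNHG1 was at 0.38 and GAS5 at 0.34 with scaling to the exonic total, and SNHG15 at -0.45 with exonic plus intronic reads. Unlabelled SNHG12, near 0, was at -0.037 with no filter, -0.74 with exonic plus intronic reads, -0.081 with STAR, -0.10 with HISAT2 and -1.24 with the exon-level column (called). With label under improved handling SNHG6 was at 0.014 with HISAT2, and ZFAS1 at -0.068, -0.20 and -0.39 with exonic plus intronic reads, HISAT2 and the exon-level column. Leaving out libraries gave unlabelled ranges of -0.27 to 0.052 for SNHG1, -0.40 to 0.011 for GAS5, -0.37 to 0.41 for SNHG12 and -0.14 to 0.39 for SNHG15. Over all settings but left-out libraries, 46 of the members' values in labelled cells kept their direction and their side of the threshold, while 6 lost a call, 6 gained one and 6 turned in sign. In unlabelled cells 47 kept both, 9 gained a call and 8 turned, and for label under improved handling 59 kept both, 1 gained a call and 4 turned. The cause of the changes was not tested. No member had 20 exonic and 20 intronic reads in each labelled library of a handling, and no fit of introns against exons is given. SNHG16 did reach 10 of each in the 6 labelled libraries with improved handling (10 to 31 intronic reads), but that fit was not run. No member had 200 exonic reads in each labelled library, so the higher minimum gave no member value.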
